A study of Mus musculus with 4 samples.

Results

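A set of 10 genes of fatty acid synthesis and milk fat secretion, Thrsp, Fasn, Acly, Scd1, Scd2, Abhd5, Plin2, Btn1a1, Xdh and Mfge8, was followed in single cells of mouse mammary tumours. They were chosen by symbol, with earlier results of these data known, and each matched 1 of the 55472 gene entries. The tumours came from female FVB mice aged 13 to 14 weeks that carried MMTV-PyMT, K14Cre and Rosa-tdTomato, so every sample was a tumour of the same genotype and there was no treated or normal group to compare with. MMTV-PyMT expresses the polyoma middle T oncogene from a promoter active in mammary epithelium, K14Cre expresses Cre recombinase from a keratin 14 promoter, and Rosa-tdTomato is a fluorescent reporter that Cre switches on. Cells of 4 tumours from 3 mice were profiled, 1 library each. Tumour 1 pooled several mammary glands of mouse 1, tumour 2 was an inguinal tumour of mouse 2, and tumours 3 and 4 were the thoracic and inguinal tumours of mouse 3. The study asked how cells differ within and between such tumours, and the comparisons below are therefore between cell classes inside each tumour.

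In milk-producing epithelium, fatty acids are built from citrate-derived acetyl-CoA, desaturated, packed as triglyceride into cytoplasmic droplets and released wrapped in cell membrane. Acly makes the acetyl-CoA, Fasn joins it into fatty acids, Thrsp (Spot 14) is a small protein tied to lipogenesis in the lactating gland, and the desaturases Scd1 and Scd2 introduce a double bond. Plin2 coats the droplet, Abhd5 activates the droplet lipase Pnpla2, Btn1a1 and Xdh act together at the membrane that envelops the droplet, and Mfge8 is a secreted glycoprotein of the milk fat globule that also bridges dying cells to phagocytes.

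Cells were assigned by marker molecules. A unique molecular identifier (UMI) marks 1 captured RNA molecule. Epithelial cells had at least 3 UMIs of Krt8, Krt18 and Epcam together and at most 1 of C1qa, C1qb, Col3a1 and Cdh5, macrophages had at least 5 of C1qa and C1qb, and fibroblasts had at least 10 of Col1a1 and Col3a1. The 4 libraries held 20281799 to 39370565 UMIs in 8434 to 9580 barcodes, and the gates held 22925 epithelial cells, 3113 macrophages and 1587 fibroblasts of 36162 barcodes, with 48 cells in a pair of gates and 8585 in none. Luminal markers summed to 3315 to 4245 CPM (UMIs per 1000000 UMIs of all genes in the gate's cells) in the epithelial gate, macrophage markers to 20925 to 27632 CPM in the macrophage gate and fibroblast markers to 17073 to 20482 CPM in the fibroblast gate. Luminal markers were still 768 to 1472 CPM in macrophages and 500.4 to 906 CPM in fibroblasts, so each comparison of gates is also given for strict gates, whose macrophages and fibroblasts had at most 1 UMI of Krt8, Krt18 and Epcam. All 8 adipocyte markers were at 0 in the macrophage gate of every tumour, and they summed to at most 2.24 CPM in the fibroblast gate and 0.379 CPM in the epithelial gate. Pairs of libraries shared 96 to 129 barcodes, 1.10 to 1.37% of the smaller library. Tumour 2 stood apart, with 85.2% of its barcodes in the epithelial gate against 51.1 to 62.0% in the other tumours, and leave-out values are given where it decided a call.

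Promoter sequence was at hand for 6 of the 10 genes, as the 250 bases before the annotated start in a RefSeq table (GRCm38.p6). The promoters of Fasn and Plin2 are printed because they stand for the synthesis and the droplet arm, and Mfge8 because its level was not called different between fibroblasts and epithelial cells. Capitals mark matches to CCAAT (either strand, ATTGG on the other) and to the GC box GGGCGG (on the other strand it reads CCGCCC). All 3 genes lie on the minus strand, and the letters run 5′ to 3′ towards the start.

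Fasn, chr11:120824548-120824797: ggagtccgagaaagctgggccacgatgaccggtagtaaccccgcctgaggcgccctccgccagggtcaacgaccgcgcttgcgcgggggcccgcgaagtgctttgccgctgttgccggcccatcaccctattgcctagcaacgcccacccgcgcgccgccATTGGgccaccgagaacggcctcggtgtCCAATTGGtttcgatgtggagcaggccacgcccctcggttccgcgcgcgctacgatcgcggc

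Plin2, chr4:86670060-86670309: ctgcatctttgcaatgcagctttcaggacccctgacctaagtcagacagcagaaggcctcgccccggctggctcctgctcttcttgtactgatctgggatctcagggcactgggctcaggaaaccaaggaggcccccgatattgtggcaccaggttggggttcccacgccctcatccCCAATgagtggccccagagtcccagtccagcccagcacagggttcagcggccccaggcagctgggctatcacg

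Mfge8, chr7:79149061-79149310: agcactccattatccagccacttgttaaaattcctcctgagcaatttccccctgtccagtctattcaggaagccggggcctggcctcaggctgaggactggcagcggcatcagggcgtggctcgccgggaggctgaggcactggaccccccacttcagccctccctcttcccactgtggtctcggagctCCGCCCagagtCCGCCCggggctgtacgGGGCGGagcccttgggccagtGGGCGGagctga

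Fasn held 3 CCAAT matches, 90, 62 and 59 bases before the start, and Plin2 held 1, 73 bases before it. The Fasn matches at 62 and 59 bases lie on opposite strands and overlap in a single capital stretch. Mfge8 held no CCAAT match but 4 GC boxes, 61, 50, 33 and 12 bases before its start. Thrsp held CCAAT matches 79 and 52 bases before its start, shown here in windows of 21 bases because the region around them overlaps an annotated UTR.

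Thrsp, chr7:97417617-97417637: acgctgggATTGGctcaaaac

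Thrsp, chr7:97417590-97417610: gtgttgctCCAATggttgggc

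Acly held 4 GC boxes and Abhd5 held 1. The same search over 32851 promoters of that length found CCAAT in 33.8% and the GC box in 32.7%, so such matches are common. None of the 6 windows matched the STAT5 motif TTCNNNGAA, the sterol response element TCACNCCAC or the E-box CACGTG, which occurred in 7.02%, 1.05% and 6.02% of all promoters. These are matches of letters in 1 window per gene, not evidence of binding.

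Among the synthesis genes, Thrsp had the widest range between tumours (gene on chromosome 7, 97412938 to 97417730, minus strand, GRCm38). In epithelial cells it reached 619 CPM in tumour 1 (95% Poisson interval 606 to 633), 276 in tumour 2 (270.2 to 281), 935 in tumour 3 (921 to 949) and 622 in tumour 4 (611 to 632). Tumour 2 was the lowest, tumour 3 was 3.39 times higher, and the counting intervals of tumours 1 and 4 overlapped. With each cell thinned to 1500 UMIs, 45.1% (95% exact binomial interval 43.6 to 46.7), 24.8% (23.9 to 25.8), 50.5% (49.0 to 52.1) and 38.4% (37.1 to 39.7) of epithelial cells in tumours 1 to 4 carried a Thrsp UMI, against 56.3, 43.1, 68.1 and 55.3% without thinning. These intervals cover counting error only. Thinning kept 82.7, 100.0, 97.6 and 95.7% of the epithelial cells. Tumour 2 was lowest on both scales.

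The other synthesis genes varied less. Fasn (chromosome 11, 120805846 to 120824547, minus strand) was at 27.8, 33.1, 29.5 and 33.4 CPM in epithelial cells of tumours 1 to 4, and Acly (chromosome 11, 100476353 to 100528000, minus strand) at 38.5, 38.7, 40.7 and 48.4 CPM. Their highest tumours exceeded their lowest 1.20-fold and 1.26-fold, and for neither gene was tumour 2 the lowest. Scd1 (chromosome 19, 44394455 to 44407879, minus strand) split the tumours differently, with 43.7 and 56.2 CPM in tumours 1 and 2 and 90.0 and 87.6 CPM in tumours 3 and 4. Both tumours of mouse 3 were thus above the other 2. Its neighbour Scd2 (chromosome 19, 44293674 to 44306864, plus strand) was at 94.4, 64.5, 117 and 100.3 CPM, lowest in tumour 2. How reads matching both Scd1 and Scd2 were counted is not given in the sources used here.

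Among the droplet and globule genes, Plin2 (chromosome 4, 86648386 to 86670060, minus strand) was the steadiest, at 109, 124, 118 and 129 CPM in epithelial cells. Xdh (chromosome 17, 73883895 to 73950196, minus strand) was close to it in spread, at 93.5, 78.8, 76.4 and 84.9 CPM, and Abhd5 (chromosome 9, 122351608 to 122381524, plus strand) was at 85.6, 58.5, 94.6 and 98.6 CPM. Tumour 2 was lowest for Abhd5 alone of these 3. Btn1a1 (chromosome 13, 23456992 to 23465901, minus strand) was at 22.8 (20.3 to 25.5), 7.82 (6.92 to 8.80), 20.4 (18.4 to 22.6) and 19.3 CPM (17.5 to 21.2). Mfge8 (chromosome 7, 79133768 to 79149060, minus strand) was at 494 (482 to 506), 180 (175 to 184), 569 (558 to 580) and 624 CPM (613 to 634). For both genes tumour 2 was far below the other 3, and its counting interval overlapped none of theirs. The ratio of the highest to the lowest tumour was 2.92 for Btn1a1 and 3.47 for Mfge8, against 1.18 for Plin2, 1.22 for Xdh and 1.68 for Abhd5.

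The milk proteins of tumour 2 were not low as a group beside its low Thrsp, Btn1a1 and Mfge8. Csn3 (kappa-casein) was at 3337, 8978, 2535 and 5084 CPM in epithelial cells of tumours 1 to 4, and Lalba (alpha-lactalbumin) at 807, 1808, 774 and 1191 CPM, both highest in tumour 2. The whey protein Wap was lowest there, at 128, 70.1, 89.7 and 157 CPM, and so was the casein Csn1s2a, at 85.6, 8.39, 17.2 and 11.4 CPM. Within mouse 3, the inguinal tumour had 0.665 times the Thrsp CPM of the thoracic tumour (counting interval 0.650 to 0.680), 0.856 times the Scd2 (0.807 to 0.909) and 1.10 times the Mfge8 (1.07 to 1.12). Acly, Fasn, Plin2 and Xdh were 1.09 to 1.19 times higher in the inguinal tumour, and the counting intervals of Scd1, Abhd5 and Btn1a1 included no difference. With 1 tumour at each site, a difference between glands cannot be told apart from a difference between libraries.

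**Figure D1:**
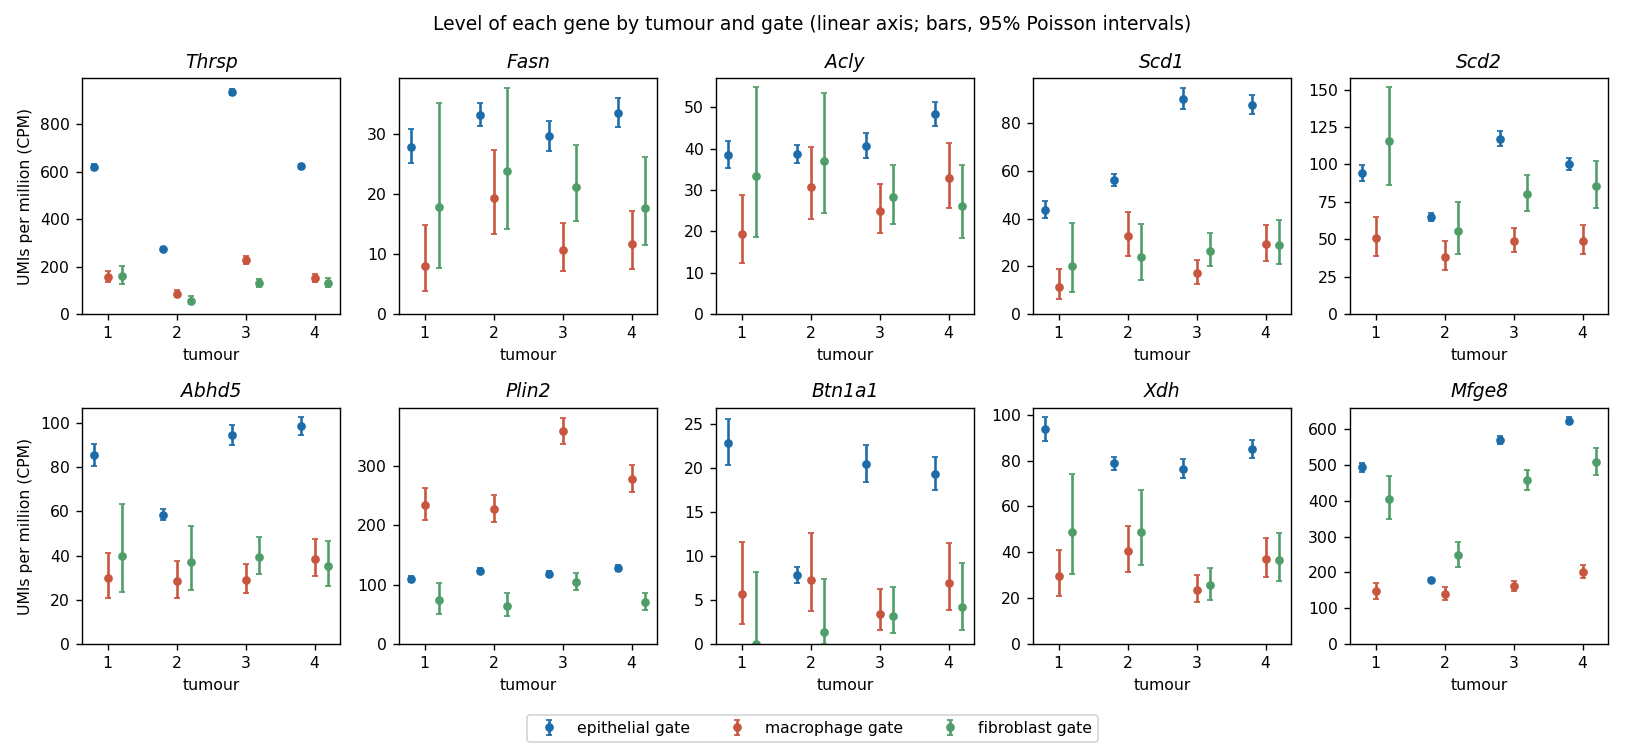
Levels of the 10 genes in CPM by cell gate, 1 point per tumour, with 95% Poisson counting intervals as bars. Epithelial Thrsp runs from 276 to 935 CPM and Mfge8 from 180 to 624 CPM, with tumour 2 lowest for both, while Plin2 is highest in the macrophage gate of every tumour.

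Macrophages had more Plin2 RNA and less RNA of most of the other genes than epithelial cells. Counts were summed per mouse and gate and compared with edgeR's quasi-likelihood test with mouse as a block, with Benjamini-Hochberg adjustment over all 12761 genes tested. With mouse as a block, the p-values rest on how far the difference between gates varied over 3 mice, with tumours 3 and 4 counted as 1. Of the 10 genes, 1 was higher and 8 were lower in macrophages, where 22.2% of all genes tested were higher and 20.6% lower (42.8% called in all). The median log2 fold change was -1.10 over the 10 genes and -0.06 over all genes. Because the 10 genes were chosen with earlier results known, such counts and medians, here and below, are no test of the set.

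Plin2 was at 234, 228, 359 and 279 CPM in macrophages of tumours 1 to 4 and at 109 to 129 CPM in epithelial cells. Macrophages were above epithelial cells in all 4 tumours, with ratios of 1.84 to 3.03 that became 2.31 to 3.47 in strict gates. The mean over mice was 262 ± 54.2 CPM (SD, n = 3) against 119 ± 8.35 CPM, a log2 fold change of 1.34 (SE 0.12, edgeR adjusted p = 7.61e-07), higher in 3 of 3 mice. The adipocyte markers were at 0 in this gate, as given above.

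Thrsp was at 156, 86.4, 227 and 151 CPM in macrophages, each below the epithelial value of the same tumour. It fell by 1.66 on the log2 scale (SE 0.12, edgeR adjusted p = 1.14e-07), lower in 3 of 3 mice. The ratio to epithelial cells was near that of the milk proteins. Macrophages had 0.243 to 0.313 times the epithelial Thrsp CPM and 0.197 to 0.310 times the summed milk protein CPM, and both were smaller in strict gates. After thinning to 1500 UMIs, Csn3 was found in 34.2, 53.4, 18.9 and 36.6% of macrophages against 75.2, 95.8, 57.0 and 83.0% of epithelial cells, and Thrsp in 16.3, 7.57, 17.3 and 11.0% of macrophages. Thinning kept 40.2, 100, 93.2 and 91.5% of the macrophages of tumours 1 to 4, so the tumour 1 shares cover only its deeper cells. Without thinning the macrophage shares were 25.9, 63.1, 25.8 and 42.2% for Csn3 and 11.5, 13.4, 24.5 and 14.8% for Thrsp, at median depths of 1346.5, 2573, 2337.5 and 2220 UMIs in macrophages and 2493, 3455.5, 3591 and 3110 UMIs in epithelial cells. In strict gates the Thrsp ratio was 0.139, 0.0465, 0.102 and 0.0964 in tumours 1 to 4 and that of the summed milk proteins 0.0731, 0.0494, 0.0632 and 0.0816, so Thrsp was above the milk proteins in tumours 1, 3 and 4. How much of the macrophage Thrsp RNA came from epithelial cells was not tested.

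The desaturase Scd1 was at 11.3, 32.6, 17.1 and 29.1 CPM in macrophages against 43.7 to 90.0 CPM in epithelial cells, with no overlap. It fell by 1.33 on the log2 scale (edgeR adjusted p = 1.76e-04), and by 3.29 in strict gates. Mfge8, at 147, 141, 161 and 202 CPM in macrophages, fell by 1.09 (edgeR adjusted p = 0.00106) and by 2.56 in strict gates. Both genes thus lay further below epithelial cells once keratin-bearing cells were left out. Fasn (log2 fold change -1.08), Abhd5 (-1.16), Xdh (-1.12), Scd2 (-0.73) and Btn1a1 (-1.32) were also called lower, each lower in 3 of 3 mice. The Btn1a1 call rested on 7 to 15 UMIs per tumour in macrophages and was lost without tumour 1 (log2 fold change -1.11, edgeR adjusted p = 0.0657) and without both tumours of mouse 3 (-0.84, 0.184). It was also lost with DESeq2 (-1.16, adjusted p = 0.0999) and in edgeR without the mouse block (-1.35, adjusted p = 0.0572). Acly was the only member not called (log2 fold change -0.39, edgeR adjusted p = 0.0694), and without tumour 2 it was called lower (-0.53, 0.0191).

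Fibroblasts had less RNA of 8 of the 10 genes than epithelial cells and more of none. Among all 12761 genes, 24.2% were higher and 23.6% lower (47.8% called). The median log2 fold change was -0.92 over the 10 genes and -0.07 over all. Thrsp was at 160.1, 56.8, 130.0 and 132 CPM in fibroblasts, again well below epithelial cells of the same tumour. It fell by 2.34 on the log2 scale (SE 0.13, edgeR adjusted p = 8.90e-09), and by 3.36 in strict gates. Btn1a1 was almost missing from fibroblasts, with 0, 1, 7 and 6 UMIs in tumours 1 to 4. A count of 0 in the 449612 UMIs in the fibroblast gate of tumour 1 allows up to 8.20 CPM at the upper end of its 95% interval. Btn1a1 fell by 2.65 (edgeR adjusted p = 4.21e-04), Scd1 by 1.49 (1.45e-04), and Abhd5 and Xdh by 1.15 each (5.93e-05 and 1.20e-04).

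Plin2, at 73.4, 64.7, 105 and 70.1 CPM in fibroblasts, fell by 0.69 (edgeR adjusted p = 8.18e-04), the opposite direction to macrophages. Fasn and Acly lay nearer to epithelial levels. Fasn was at 17.8, 23.8, 21.1 and 17.7 CPM and fell by 0.64 (edgeR adjusted p = 0.0192), and Acly was at 33.4, 37.0, 28.2 and 26.2 CPM and fell by 0.47 (0.0482). Both calls were weak. Each rested on 8 to 63 UMIs per tumour, and leaving out tumour 1 ended both (log2 fold change -0.60, edgeR adjusted p = 0.0691 for Fasn and -0.47, 0.0984 for Acly). They also ended without tumour 4 (-0.54, 0.0643 and -0.35, 0.153) and without both tumours of mouse 3 (-0.59, 0.187 and -0.17, 0.655), and Acly ended without tumour 3 as well (-0.49, 0.0690).

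Mfge8 and Scd2 were the 2 genes not called different in fibroblasts. Mfge8 was at 405, 248, 457 and 508 CPM in fibroblasts and at 494, 180, 569 and 624 CPM in epithelial cells, so the fibroblast value was lower in tumours 1, 3 and 4 and higher in tumour 2. The log2 fold change was -0.15 (SE 0.21, edgeR adjusted p = 0.602), and without tumour 2 it was -0.41 (0.00538), called lower. The ratio to epithelial cells was 0.804 to 1.38 in the gate and 0.764 to 1.38 in strict gates, while the summed milk proteins went from 0.137 to 0.169 down to 0.0278 to 0.0547. The Mfge8 level of fibroblasts was therefore as high without the keratin-bearing cells. Of the basal epithelial list, the contractile genes Acta2 and Mylk were higher in fibroblasts, with means over mice of 498 ± 205 and 38.8 ± 11.2 CPM (SD, n = 3) against 8.35 ± 6.62 and 5.49 ± 3.09 CPM in epithelial cells. The means of its other 5 genes were lower in fibroblasts, among them Krt14 at 13.3 against 47.7 CPM and Krt17 at 6.76 against 14.9 CPM. The whole list of 7 summed to 387 to 797 CPM against 53.1 to 152 CPM, nearly all of it Acta2 and Mylk in fibroblasts, where Krt17, Oxtr and Trp63 were at 0 in tumour 1 and Krt5 and Oxtr in tumour 2. Mural cell markers summed to 309 to 453 CPM against 22.1 to 33.5 CPM, with all 6 found in each tumour. The part of contractile and mural cells in the Mfge8 level was not tested. Scd2 was at 116, 55.4, 80.2 and 85.7 CPM in fibroblasts, 0.685 to 1.23 times the epithelial level, with a log2 fold change of -0.19 (SE 0.13, edgeR adjusted p = 0.259).

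**Figure D2:**
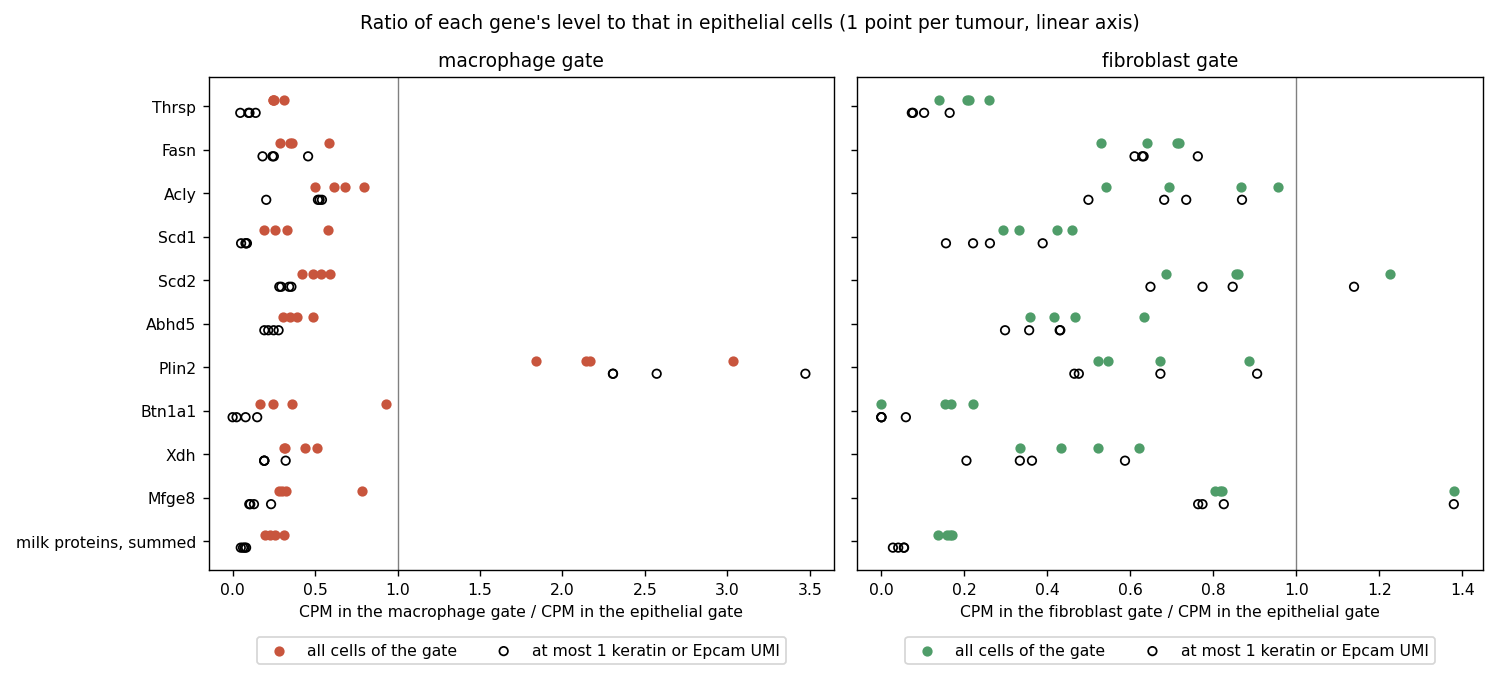
Ratio of each gene's CPM in macrophages (left) and fibroblasts (right) to that in epithelial cells, 1 point per tumour on a linear axis, for all cells of the gate (filled) and for strict gates (open). Thrsp and the summed milk proteins move towards 0 in strict gates on both sides, while Plin2 in macrophages stays above 1 and Mfge8 and Scd2 in fibroblasts stay between 0.649 and 1.38.

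Set directly against fibroblasts, macrophages differed in 4 of the 10 genes, 2 in each direction, where 21.5% of all genes were higher and 18.8% lower (40.3% called). The median log2 fold change was 0.06 over the 10 genes and 0.10 over all. Plin2 was higher by 2.04 on the log2 scale (SE 0.14, edgeR adjusted p = 8.25e-08, higher in 3 of 3 mice). Mfge8 was lower by a log2 fold change of -0.94 (SE 0.22, edgeR adjusted p = 0.00391, lower in 3 of 3 mice), and -2.39 in strict gates. Scd2 was lower (-0.54, edgeR adjusted p = 0.0118, lower in 3 of 3 mice), a call that ended without tumour 1 (-0.40, 0.110). Thrsp was called higher in macrophages (0.68, edgeR adjusted p = 0.00116), though its CPM was higher in only 2 of 3 mice, and the call ended in strict gates (0.37, 0.209) and without both tumours of mouse 3 (0.51, 0.0684). Scd1 was not called (0.16) but in strict gates was lower in macrophages (-1.15, edgeR adjusted p = 0.00916), and Fasn went from -0.44 to -0.91 (0.0311). The mice and gates are shared between these 3 comparisons, so their values are not independent of one another.

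**Figure D3:**
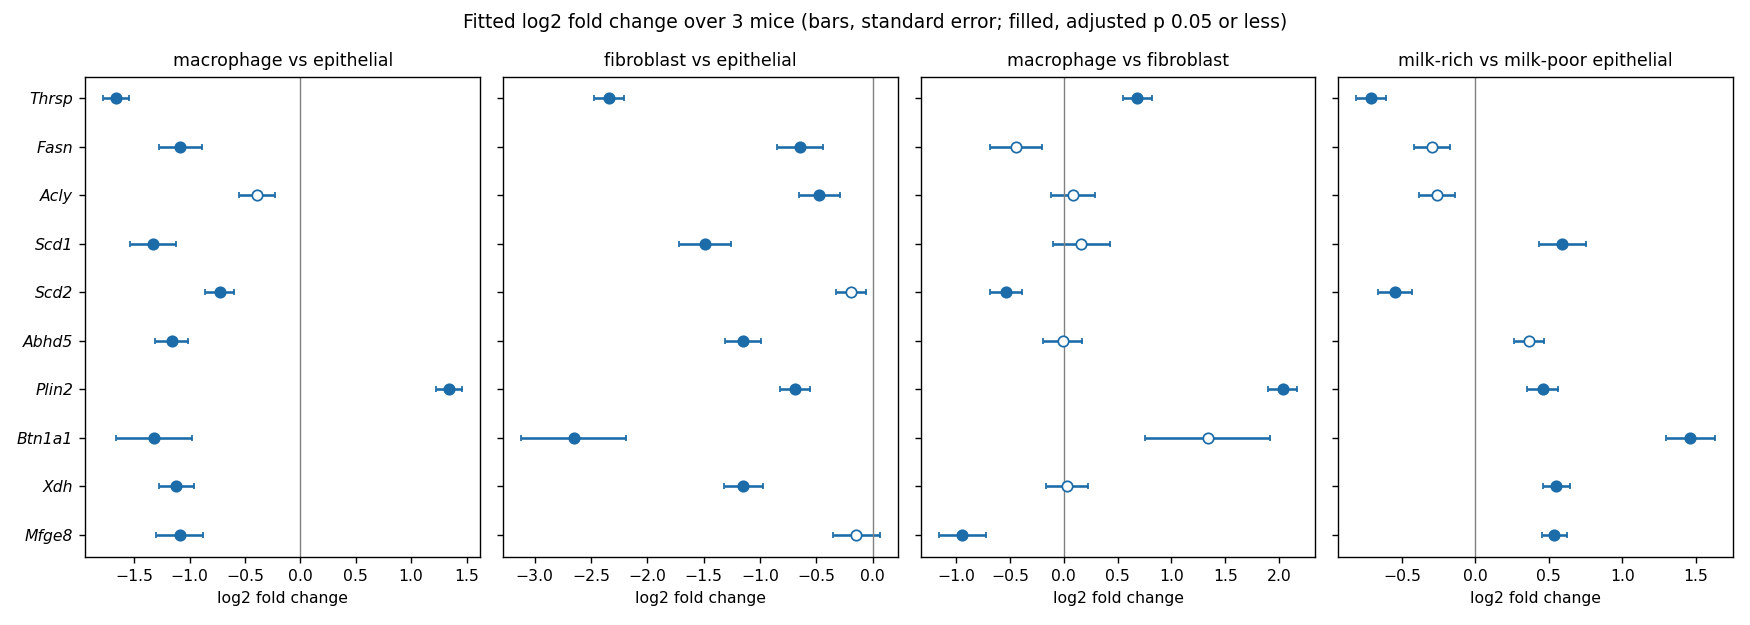
Fitted log2 fold changes of the 10 genes in the 4 comparisons, with bars of 1 standard error and called genes (edgeR adjusted p of 0.05 or less) filled. Plin2 is the only member above 0 and called in macrophages against epithelial cells, while 5 members are called higher and 2 lower in milk-rich epithelial cells.

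Other lipid genes were counted by pathway list. Of all genes tested, 22.2% were higher and 20.6% lower in macrophages than in epithelial cells. In fibroblasts 24.2% were higher and 23.6% lower. Counts near these shares, here and below, are no result about a list. Of 15 other genes of fatty acid synthesis and desaturation tested, 7 were lower and 2 higher in macrophages than in epithelial cells, and the counts were the same for fibroblasts (medians -0.69 and -0.60 on the log2 scale). The cytosolic NADPH supplier Me1 was among the lower genes (log2 fold change -1.88 in macrophages, -1.55 in fibroblasts), and the desaturase Fads1 (0.69 and 0.64) and the elongase Elovl1 (0.73 and 0.37) were the higher ones in both. Of 9 genes of fatty acid uptake and transport, 4 were higher and 2 lower in macrophages, and 3 were higher and 2 lower in fibroblasts (medians 0.25 and -0.39). Lpl, the lipase that frees fatty acids from circulating lipoproteins, was higher in both (4.69 and 6.79), and the fatty acid carrier Fabp5 was higher in macrophages (1.41) and lower in fibroblasts (-0.91). The carrier Fabp4 was higher in fibroblasts (3.30).

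Of 9 other droplet and lipolysis genes, macrophages were higher for the droplet genes Hilpda (0.60) and Bscl2 (0.85) and lower for 4, among them G0s2, an inhibitor of the lipase Pnpla2 (-1.53), and Pnpla2 itself (-0.61). Fibroblasts were higher for the monoglyceride lipase Mgll (1.73) and lower for 4, with G0s2 at -1.98 (medians -0.61 and -0.47). Sterol synthesis genes were lower in 7 of 13 and higher in 0 in macrophages, and lower in 7 and higher in 3 in fibroblasts, with Hmgcs1 (1.20) and Cyp51 (1.11) among the last and medians of -0.63 and -0.75. Of 9 sterol response regulators, 2 were higher and 3 lower in macrophages, and 2 were higher and 2 lower in fibroblasts (medians -0.34 and -0.14). Among them Srebf1, a regulator of fatty acid synthesis genes, was lower in macrophages (-1.12) and fibroblasts (-1.50). Nr1h3, a sterol-sensing nuclear receptor, was higher in both (1.70 and 2.45). Of 9 genes of glycerolipid assembly, 3 were higher and 2 lower in macrophages and 2 higher and 1 lower in fibroblasts, with the phosphatidate phosphatase Lpin2 higher in both (1.93 and 1.19). Milk proteins were lower in 5 of 7 in macrophages and 6 of 7 in fibroblasts, and the alveolar regulators Elf5, Prlr and Stat5a were lower in both gates. Between macrophages and fibroblasts, 21.5% of all genes tested were higher and 18.8% lower. There 3 of 15 synthesis genes were higher and 1 lower, and 3 of 9 uptake genes were higher and 2 lower. Of 13 sterol synthesis genes, 0 were higher and 3 lower. G0s2, Pnpla2, Srebf1, Nr1h3, Lpin2, Cyp51 and Stat5a were picked for naming after their values were seen.

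Within the epithelial gate, most of the milk fat genes rose and the lipogenic gene Thrsp fell with summed milk protein RNA, most of it Csn3. In each tumour the 25% of epithelial cells richest in UMIs of 7 milk proteins per 10000 UMIs were compared with the poorest 50%, with the milk proteins themselves given no test. In this gate Csn3 was 3337 of 4445, 8978 of 10900.5, 2535 of 3444 and 5084 of 6510 summed CPM in tumours 1 to 4. The classes thus rank cells mainly by Csn3, not by each milk protein. Median depth was 2124 to 3142 UMIs in the rich cells and 2660 to 3782 UMIs in the poor cells, and tumours 3 and 4 were summed. Levels in these classes are CPM of all UMIs. Of the 10 genes, 5 were higher and 2 lower in the rich cells, where 4.39% of the 13198 genes tested were higher and 3.80% lower (8.18% called). The median log2 fold change was 0.41 over the 10 genes and -0.02 over all. Of the 5 droplet and globule genes 4 were higher and 0 lower, and of the 5 synthesis genes 1 was higher and 2 lower.

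Btn1a1 was at 46.9, 10.9 and 35.2 CPM in the rich cells of mice 1, 2 and 3 and at 13.2, 6.42 and 11.7 CPM in the poor cells. The rich cells were higher in each mouse, and the gap was smallest in mouse 2. The log2 fold change was 1.46 (SE 0.17, edgeR adjusted p = 5.29e-04). Its partner Xdh was at 114, 96.3 and 106 CPM against 86.5, 70.0 and 67.8 CPM, with no overlap between the groups (log2 fold change 0.55, SE 0.09, edgeR adjusted p = 0.00480). Mfge8 was at 581, 223 and 716 CPM against 438, 155 and 492 CPM (0.54, SE 0.09, edgeR adjusted p = 0.00366), higher in 3 of 3 mice. The Mfge8 call ended without tumour 3 (0.24, edgeR adjusted p = 0.358).

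Plin2 was at 139, 129 and 159 CPM in the rich cells and 95.1, 123 and 103 CPM in the poor cells, a small difference in mouse 2 (log2 fold change 0.46, edgeR adjusted p = 0.0208, higher in 3 of 3 mice). Scd1 was at 69.4, 64.1 and 93.5 CPM against 28.6, 51.2 and 80.2 CPM (0.59, edgeR adjusted p = 0.0443, higher in 3 of 3 mice). Both calls depended on single tumours. Plin2 ended without tumour 1 (0.42, 0.213), without tumour 4 (0.52, 0.0791) and without mouse 3 (0.36, 0.0929), and Scd1 ended without tumour 1 (0.34, edgeR adjusted p = 0.300), 3 (0.50, 0.128) or 4 (0.71, 0.0567). Abhd5 had a log2 fold change of 0.36 (edgeR adjusted p = 0.0514), higher in 3 of 3 mice, and was called without tumour 2 (0.46, 4.07e-05) or tumour 3 (0.41, 0.0339).

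Thrsp was at 443, 212 and 468 CPM in the rich cells and at 731, 316 and 906 CPM in the poor cells. It was lower in each mouse (log2 fold change -0.71, SE 0.10, edgeR adjusted p = 0.00177). Scd2 was at 71.2, 53.5 and 70.9 CPM against 103, 69.4 and 127 CPM (-0.55, SE 0.11, edgeR adjusted p = 0.0151), lower in 3 of 3 mice, a call lost without tumour 1 (-0.54, 0.127), tumour 4 (-0.50, 0.0701) or mouse 3 (-0.37, 0.0937). Acly (-0.26, edgeR adjusted p = 0.235) and Fasn (-0.30, 0.168) were not called. Of the genes that extend the pathway, 3 of 15 other synthesis genes were higher and 0 lower, among them Me1 (0.54) and Elovl1 (0.51), and the carrier Dbi (0.49) was the 1 called of 9 uptake genes. Of 4 alveolar regulators, 1 was higher and 3 were not called (median log2 fold change 0.19). The higher one was Elf5, a transcription factor of alveolar epithelium (0.51). No gene was called among 13 of sterol synthesis (median log2 fold change -0.30), 10 other droplet genes, 9 of glycerolipid assembly and 10 sterol response regulators. Among all genes tested in this comparison, 4.39% were higher and 3.80% lower.

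The rich and poor cells also differed in basal marker RNA, which summed to 35.2 to 123 CPM in the rich and 62.1 to 168 CPM in the poor cells. Without cells bearing 3 or more UMIs of Krt5, Krt14 and Krt17, 1041 genes were called in place of 1080. Macrophage markers were 41.5 to 115 CPM in the rich and 54.4 to 100.0 CPM in the poor cells. Part of the milk protein UMIs of any 1 cell may be free RNA, and its part in these differences was not tested.

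**Figure D4:**
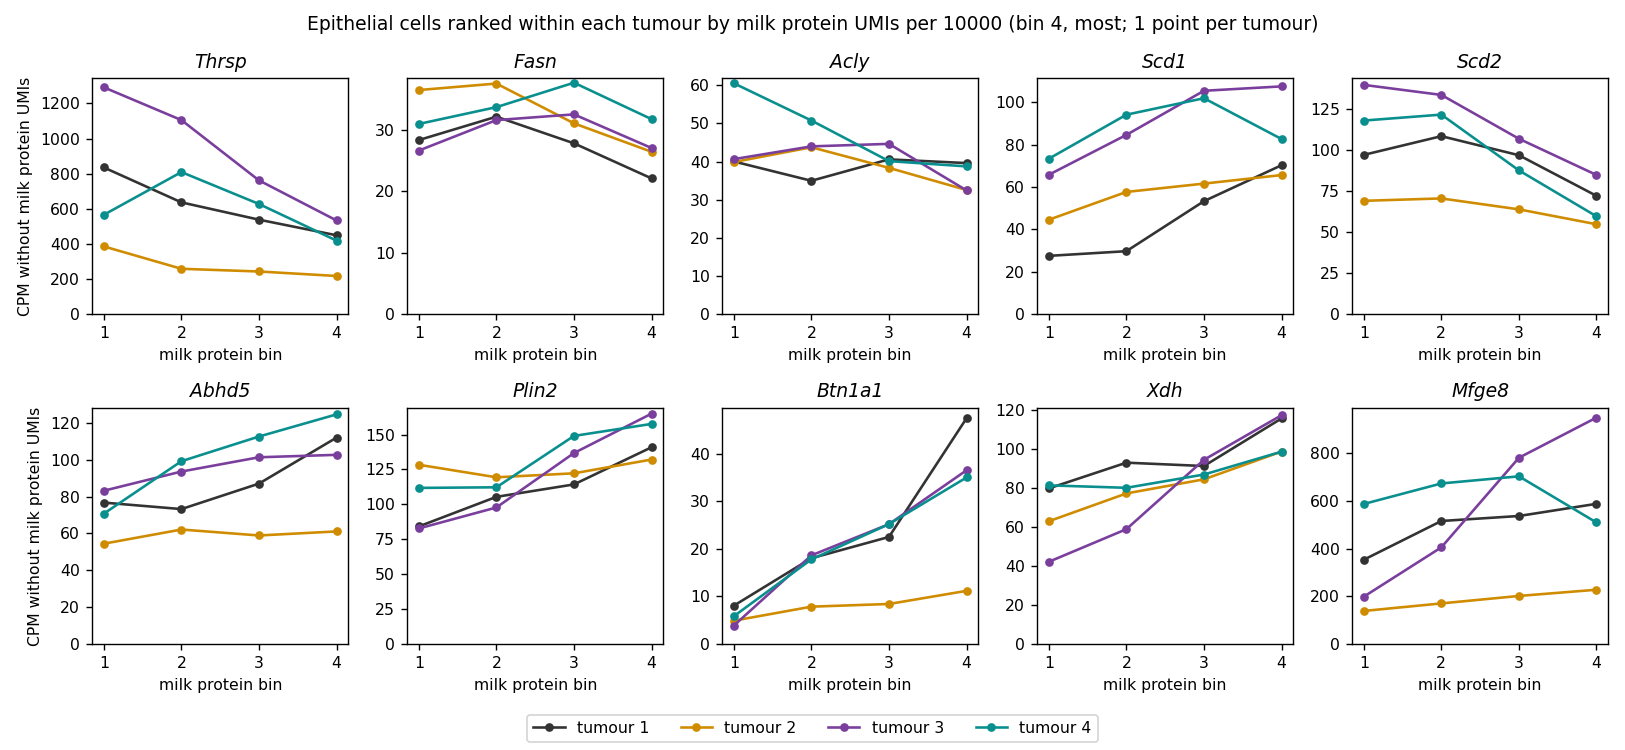
CPM of each gene, leaving milk protein UMIs out of the total, in 4 bins of epithelial cells ordered by milk protein UMIs per 10000, 1 line per tumour. Ties stayed in the lower bin. Btn1a1 climbs from the first to the fourth bin in every tumour, Thrsp descends in tumours 1 to 3, and in tumour 4 both Thrsp and Mfge8 peak in a middle bin.

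Epithelial cells were also split into 4 bins by milk protein UMIs, with CPM scaled here without the milk protein UMIs. Ties stayed in the lower bin, so the bins of tumour 3 held 1158, 998, 1078 and 1078 cells. Btn1a1 was 5.88, 2.28, 9.44 and 5.99 times higher in the richest than in the poorest bin of tumours 1 to 4. Each step between bins went up in all 4 tumours. Xdh was 1.45, 1.57, 2.78 and 1.21 times higher and Mfge8 was 1.66, 1.64, 4.78 and 0.868 times the level of the poorest bin. For Mfge8 tumours 3 and 4 of the same mouse thus differed in direction, 199 to 951 CPM in tumour 3 and 588 to 510.2 CPM in tumour 4. Thrsp went from 835 to 449, 385 to 217 and 1292 to 533 CPM in tumours 1 to 3. In tumour 4 it was at 566, 809, 627 and 418 CPM, highest in the second bin. These 2 tumours of mouse 3 were summed in the test above, and the difference between them was not tested.

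Across single epithelial cells the correlations between the 10 genes were close to 0. Pearson correlations of log(1 + UMIs) after thinning to 1500 UMIs were taken over 3812, 8158, 4209 and 5596 cells of tumours 1 to 4. Cells of 1 tumour share a library and its free RNA, and most genes have 0 or 1 UMI per cell at this depth, so the values are descriptions. Counts this sparse also pull r towards 0, so a low r does not show that a pair of genes is unrelated. Of 45 pairs, 42 had a mean r over mice within 0.05 of 0, and 19 kept 1 sign in all 4 tumours. The highest pair was Btn1a1 with Mfge8, at 0.100, 0.058, 0.121 and 0.110. Thrsp with Abhd5 was at 0.058, 0.031, 0.052 and 0.105, and Thrsp with Mfge8 was negative in each tumour, at -0.082, -0.031, -0.151 and -0.047.

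Against the milk proteins, Thrsp was negative with Csn3 in all 4 tumours (-0.161, -0.147, -0.251 and -0.110). Mfge8 with Csn3 was at 0.094, 0.084, 0.326 and -0.050, positive in 3 tumours and negative in tumour 4. Epithelial cells with at least 1 Thrsp UMI had 0.525 to 0.808 times the Csn3 CPM of cells without one, and 1.30 to 1.84 times the CPM of Wap. Milk proteins therefore did not move as 1 group with Thrsp. The same split gave 1.26 to 1.51 times the Abhd5, 1.18 to 1.36 times the Scd2 and 0.706 to 0.882 times the Mfge8, with no counting interval that included 1. Fasn had ratios of 1.13 to 1.20 and Acly of 1.09 to 1.38, but the counting intervals included 1 in all 4 tumours for Fasn and in tumours 1, 2 and 3 for Acly. Scd1, Plin2, Btn1a1 and Xdh had ratios on both sides of 1.

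**Figure D5:**
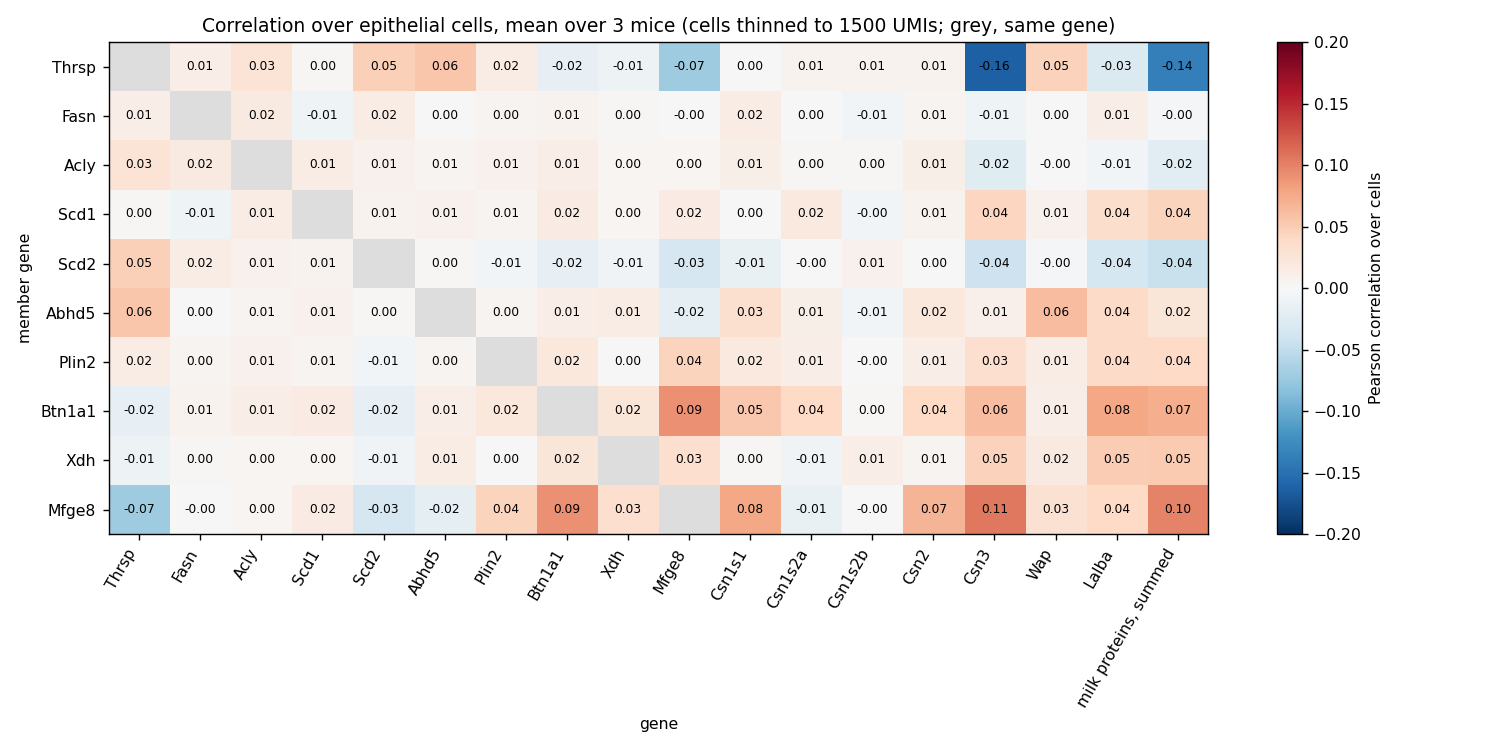
Mean over mice of the Pearson correlation between genes in thinned epithelial cells, members and milk proteins. Most pairs of members lie within 0.05 of 0, and Thrsp is negative and Mfge8 positive against Csn3.

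Thrsp and Mfge8 also had the highest Fano factors of the members, and the highest mean UMIs per cell. The Fano factor (variance over mean, 1 for counting noise alone) was 3.06 ± 0.515 (SD, n = 3 mice) for Thrsp, 2.43 ± 0.473 for Mfge8 and 1.40 ± 0.179 for Scd1 in thinned epithelial cells. Fasn at 1.01 and Acly at 1.00 were at the value of counting noise. Thinned means were 0.431 to 1.38 UMIs per cell for Thrsp and 0.283 to 0.910 for Mfge8. They were 0.0347 to 0.0482 for Fasn and 0.0565 to 0.0634 for Acly. At the same relative spread this factor grows with the mean, so it cannot rank the spread of genes of unlike level. Plin2, Btn1a1, Xdh, Abhd5 and Scd2 lay between 1.07 and 1.15.

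The genes most like each member across epithelial cells were ranked among 4843 genes (4844 for Btn1a1) by the mean correlation over mice. Closest to Thrsp were the lipolysis inhibitor G0s2 (mean r 0.183, and 0.156, 0.138, 0.280 and 0.228 in tumours 1 to 4), Xbp1 (0.137) and Car6 (0.136). Closest to Mfge8 were Spp1 (0.372, positive in all 4 tumours at 0.282 to 0.414), Igfbp5 (0.315) and Ltf (0.223), and closest to Btn1a1 were Igfbp5 (0.120), Mfge8 (0.0912) and Itm2b (0.0885). Igfbp5 also stood among the top 3 of Scd1, after the acute phase gene Saa1 (0.0813) and Malat1 (0.0753). Scd2 was most like Thrsp (0.0476), G0s2 (0.0439) and Cpd (0.0419), and Abhd5 was most like Wap (0.0617), Thrsp (0.0555) and Lalba (0.0381).

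Plin2 was most like Itm2b (0.0805), the glycolytic enzyme Aldoa (0.0656) and Cd81 (0.0643), and Xdh was most like Lrg1 (0.0848), Neat1 (0.0542) and Malat1 (0.0517). For Fasn and Acly no gene exceeded a mean r of 0.0270 (Cd2bp2) and 0.0299 (Taf15), which are no findings at this sparsity.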

How the data were processed

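The authors deposited 1 matrix of whole-number UMI counts for each of 4 tumours. FastQC and Cell Ranger 2.2.0 with mm10 (GRCm38) are named per the submitters' processing notes. Library chemistry, annotation release and any doublet step are not given in the sources used here.

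Barcodes below 300 genes or at 15% mitochondrial UMIs and above were dropped, 24 of 36162 in all. No doublet caller was run. Alternatives left out the 5% of cells with the most UMIs or used strict gates. Counts were summed per gate and mouse, with tumours 3 and 4 as 1 animal, and tested with edgeR 4.0.16 in R 4.3.3 (TMM, filterByExpr, mouse as a block, Benjamini-Hochberg adjusted p of 0.05 or less). Gate markers and, between milk classes, milk proteins were given no call. The test was also run on simulated counts drawn without a difference between mice, so that run cannot check the pairing by mouse. Other alternatives were DESeq2 1.42.0, RLE size factors, no count filter, no cell filter, an epithelial gate with no other marker UMI, the upper 10% of milk cells, a milk score on thinned counts and no replicate block. The alternative without basal keratin cells was chosen after seeing the data. Same-mouse classes deviated together from their class means over mice (r 0.134 to 0.670 in 12 pairs). Such deviations cancel over mice, so positive same-mouse values pull those between different mice down (-0.540 to -0.0192 in 24 pairs). The negative values are therefore no separate evidence of pairing. The pairing is by animal. A mouse with 1 tumour is also 1 library, so animal and library cannot be told apart there. Total counts per tumour set the precision. Poisson and exact binomial intervals (95%) cover counting error only.

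The 10 genes and the gene lists were chosen with earlier results of these data known. By rule, named pathway genes were at 20 CPM or more, called and in 1 direction in 3 of 3 mice, up to 5 per direction and comparison. The genes given above as picked after their values were seen did not have to meet this rule. Some values of named genes lay below 20 CPM, such as Stat5a at 17.8 CPM in epithelial cells and Fads1 at 19.5 CPM in macrophages. Genes like a member were its top 3 by mean Pearson r. Gene coordinates are from GENCODE M21 (GRCm38). Python 3.11.15, numpy 2.4.6, scipy 1.17.1 and pandas 2.3.3 were used.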

Additional observations from a re-analysis of the deposited data

Results flagged for a closer look

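In 2 of 30 groups of 4 tumours (10 genes in 3 gates), 1 tumour lay far from the others, and chance alone gives this in about 1 in 20 groups. Scd2 in macrophages was at 38.0 CPM in tumour 2, with the next value at 49.0 CPM, and the gap was 0.863 of the whole range. Abhd5 in macrophages was at 38.4 CPM in tumour 4, with the next value at 29.8 CPM, a gap of 0.857 of the range. These levels rest on 63 to 143 UMIs of Scd2 and 37 to 85 UMIs of Abhd5 per tumour. The counting intervals overlapped those of the next tumour. For Scd2 they were 29.2 to 48.7 CPM in tumour 2 and 40.1 to 59.3 CPM in tumour 4. For Abhd5 they were 30.6 to 47.6 CPM in tumour 4 and 21.0 to 41.1 CPM in tumour 1. The cause of these gaps was not tested.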

How the results depend on the processing

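Against epithelial cells, 1 gene higher in macrophages and 6 to 9 lower, and 0 higher and 6 to 9 lower in fibroblasts, was the span over all alternatives. The number of all genes called moved beyond 1.5 times without both tumours of mouse 3, to 3272 (macrophages against epithelial cells), 3547 (fibroblasts against epithelial cells) and 2957 (macrophages against fibroblasts), where the highest counts over the leave-outs were 5537, 6084 and 5001. In the last comparison members called higher went from 2 to 1 without mouse 3, without the replicate block and in strict gates, and members called lower went to 0 without the replicate block, 4 in strict gates and 1 without tumour 1. Between milk-rich and milk-poor cells, 1080 genes became 615 with DESeq2, 1792 with no count filter (766 higher and 1026 lower, against 579 and 501) and 0 without the replicate block (edgeR, 1199 at an unadjusted p under 0.05), where 0 members were higher and 0 lower. Leaving out tumours gave 376 (tumour 1), 393 (tumour 4), 526 (mouse 3), 922 (tumour 3) and 2633 (tumour 2), with 3 to 6 members higher and 1 to 2 lower. The pairing by mouse thus carries the milk comparison, in which Btn1a1, Xdh and Thrsp were lost only without the replicate block, and without it Scd2 and Btn1a1 were also lost in macrophages against epithelial cells (edgeR adjusted p = 0.0624 and 0.0572).

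Values that changed sign were small and uncalled, with 1 exception. In fibroblasts against epithelial cells, leaving out tumours or mouse 3 gave -0.41 to 0.0041 for Mfge8 (0.0015 without mouse 3, 0.0041 without tumour 1) and -0.33 to 0.0021 for Scd2 (the last without mouse 3). In macrophages against fibroblasts, Xdh was -0.043 with DESeq2, -0.011 with RLE size factors, -0.015 without the replicate block and -0.27 in strict gates, and -0.22 to 0.16 over the leave-outs. Acly was -0.21 in strict gates and -0.23 to 0.21 over the leave-outs. Abhd5 was 0.042 with no count filter and -0.17 to 0.079 over the leave-outs. Scd1 was -0.093 to 0.30 over the leave-outs and -1.15 in strict gates, the exception (edgeR adjusted p = 0.00916). The cause was not tested. In fibroblasts Btn1a1, at 0 to 7 UMIs, is near what this depth can measure.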
